A study of Mus musculus with 52 samples.

Results

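The interleukin-6 (IL-6) cytokine axis was described through 9 genes taken by symbol from the 57010 genes of the deposited table. They are the cytokines Il6, Il11, Lif and Osm, the receptor genes Il6ra, Il6st and Osmr, the transcription factor Stat3, and Socs3, the feedback inhibitor of this pathway. RNA was sequenced from hCD40tg mice, which carry human CD40, inoculated with MC38-CEACAM5 tumors, a mouse colon carcinoma line that carries the human tumor antigen CEACAM5. The mice received ATOR-4066, a bispecific antibody that binds both CD40 and CEACAM5, or CD40 mAb, which binds CD40 alone, or vehicle. All mice of all treatments carried the transgene and the tumor. The sources used here give no promoter of the transgene, doses, sampling times or ages. Libraries came from whole tumor (4 ATOR-4066, 5 CD40 mAb, 4 vehicle), CD45+Ly6G- cells sorted from tumors (3, 3 and 4 in the same order), lymph node (5, 4 and 4) and blood (4, 5 and 5), after 2 libraries were left out as described next.

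A pair of libraries stood apart from their labels and stayed out of every comparison unless stated. In the library labelled tumor ATOR-4066 3, the summed level of 6 B cell markers was 2449 CPM, which are counts scaled to library size, while the remaining ATOR-4066 tumors held 6.84 to 34.1 CPM. In the library labelled lymph node vehicle 3, that sum was 4.04 CPM and 8 fibroblast markers summed to 11490 CPM, while B cell markers reached 2115 to 3449 CPM in the remaining vehicle nodes. In the remaining 50 libraries total counts ran from 47443744 to 64194409 in tumor, 30239560 to 47447640 in sorted cells, 46326931 to 138479656 in lymph node and 33541462 to 44080203 in blood. Haemoglobin genes took 69.8 to 88.2% of the blood counts. The labels of the sorted cells were checked with Ptprc, which encodes CD45, at 1180 to 1630 CPM there and 107 to 589 CPM in whole tumor. Ly6g was at 0 to 0.0781 CPM in sorted cells. It was also low in whole tumor, at 0 to 0.487 CPM, so it could not check the Ly6G- label. Libraries of lymph node, blood and tumor that share an animal number in their titles were taken as the same mouse, and the sorted cells carry other numbers. Nothing in the labels says whether the libraries of a group came from separate experiments, so the p-values measure the spread between these libraries.

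The cytokines encoded by Il6, Il11, Lif and Osm act through receptor complexes that all contain gp130, the product of Il6st. IL-6 first binds its own receptor, the product of Il6ra, whose soluble form lets cells without it respond, and oncostatin M (Osm) signals in mice through gp130 paired with the receptor encoded by Osmr. Janus kinases on gp130 then activate STAT3, which switches on target genes that include Socs3, and the SOCS3 protein binds gp130 and damps the signal. In tumors the axis is known for acute-phase and wound-type inflammation, in which myeloid cells and fibroblasts make the cytokines.

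All 9 genes were matched by identifier to GENCODE vM21 on build GRCm38, and all are protein-coding. Il6 (ENSMUSG00000025746) lies on chromosome 5, 30013114 to 30019981, plus strand, and Socs3 (ENSMUSG00000053113) on chromosome 11, 117966079 to 117970047, minus strand. Lif (ENSMUSG00000034394, 4257557 to 4272514) and Osm (ENSMUSG00000058755, 4236420 to 4241026) lie near each other on the plus strand of chromosome 11. Il11 (ENSMUSG00000004371) lies on chromosome 7, 4772373 to 4782859, minus strand. Il6ra (ENSMUSG00000027947) spans 89864059 to 89913196 on the minus strand of chromosome 3, Il6st (ENSMUSG00000021756) spans 112464070 to 112510086 on the plus strand of chromosome 13, and Osmr (ENSMUSG00000022146) spans 6813577 to 6874969 on the minus strand of chromosome 15. Stat3 (ENSMUSG00000004040) spans 100885098 to 100939540 on the minus strand of chromosome 11. Stat3 overlaps Stat5a and Il6ra overlaps the predicted gene Gm42809 on the opposite strand, and the sources do not say whether counting used the strand, so reads from these overlaps may be shared.

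The proximal promoters of Il6, Socs3 and Lif are shown because these are the members whose RNA passed the test in the tumor or in the sorted tumor cells. Each runs from 250 bases before to 50 bases after the RefSeq start site on GRCm38.p6, 5′ to 3′ on the gene's own strand, with capitals at matches to 3 short motifs. The Il6 promoter is chr5:30012864-30013163 on the plus strand, the Socs3 promoter chr11:117969317-117969616 on the minus strand, and the Lif promoter chr11:4257318-4257617 on the plus strand.
Il6: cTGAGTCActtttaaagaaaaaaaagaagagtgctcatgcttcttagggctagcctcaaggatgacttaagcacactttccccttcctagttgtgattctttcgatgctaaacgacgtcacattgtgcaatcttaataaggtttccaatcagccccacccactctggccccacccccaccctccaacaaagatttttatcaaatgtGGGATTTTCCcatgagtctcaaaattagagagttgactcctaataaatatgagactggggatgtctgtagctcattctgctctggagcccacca
Socs3: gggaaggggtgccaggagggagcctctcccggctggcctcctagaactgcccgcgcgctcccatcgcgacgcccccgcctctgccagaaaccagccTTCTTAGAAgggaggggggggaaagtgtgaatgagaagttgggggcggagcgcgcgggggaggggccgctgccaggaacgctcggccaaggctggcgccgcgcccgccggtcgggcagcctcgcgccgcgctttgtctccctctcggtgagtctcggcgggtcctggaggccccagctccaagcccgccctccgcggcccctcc
Lif: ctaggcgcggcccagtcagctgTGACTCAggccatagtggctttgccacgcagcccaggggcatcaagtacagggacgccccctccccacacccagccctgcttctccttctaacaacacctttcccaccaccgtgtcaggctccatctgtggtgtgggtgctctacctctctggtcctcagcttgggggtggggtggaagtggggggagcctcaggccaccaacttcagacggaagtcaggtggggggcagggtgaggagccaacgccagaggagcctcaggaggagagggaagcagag

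The motifs searched on both strands were TTCNNNGAA for STAT factors, GGGA followed by any 2 bases and TTCC for NF-kappaB and TGANTCA for AP-1. Positions count the start site as the first positive base, with no position 0. The Il6 promoter held TGAGTCA at -249 and GGGATTTTCC at -44, the Socs3 promoter held TTCTTAGAA at -154, and the Lif promoter held TGACTCA at -228. No match overlapped another. Of 32817 promoters of this length, 8.29% held the STAT motif, 1.47% the NF-kappaB motif and 7.81% the AP-1 motif. RefSeq promoters were found for 8 of the 9 members, and the AP-1 letters were also present at -98 in the second of the pair of Il11 promoters and at 4 in that of Osmr. A match is a run of letters, and no binding was measured here.

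The members differed in level by several orders of magnitude, and each material had its own pattern in vehicle mice. Levels between genes were compared as CPM per kilobase of exon, with all libraries scaled together. In vehicle tumor the pathway's inhibitor and its signal transducers led, with Socs3 at 15.7 ± 1.32, Stat3 at 9.97 ± 0.440 and Il6st at 8.80 ± 0.337 CPM per kilobase (SD, n = 4). Il6ra followed at 2.83 ± 0.478, Lif at 2.43 ± 0.498 and Osmr at 1.55 ± 0.153 CPM per kilobase, and Il6ra and Lif did not differ beyond their spread. Osm at 0.741 ± 0.0189, Il11 at 0.291 ± 0.0673 and Il6 at 0.0708 ± 0.0336 CPM per kilobase were the lowest in vehicle tumor. The Il6 level rested on 8 to 26 counts per vehicle tumor library.

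In sorted leukocytes Socs3 and Stat3 were highest as well, but Osm and Il6ra came next. In vehicle sorted cells Socs3 stood at 63.1 ± 14.7, Stat3 at 27.5 ± 5.61, Osm at 17.5 ± 8.56 and Il6ra at 13.6 ± 1.30 CPM per kilobase (SD, n = 4). Osm and Il6ra did not differ beyond their spread there. Il6st was at 3.66 ± 0.487, Lif at 0.470 ± 0.0798, Il6 at 0.182 ± 0.0483 and Osmr at 0.0287 ± 0.00722 CPM per kilobase. In vehicle lymph node Socs3 was at 11.9 ± 2.02, Stat3 at 9.66 ± 0.727 and Il6st at 9.21 ± 1.41 CPM per kilobase, with the last 2 within their spread, while Il6 was at 0.0794 ± 0.0302. In vehicle blood Socs3 at 13.3 ± 5.06, Il6ra at 13.3 ± 1.11 and Stat3 at 13.0 ± 0.471 CPM per kilobase did not differ beyond their spread (SD, n = 5).

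**Figure D1:**
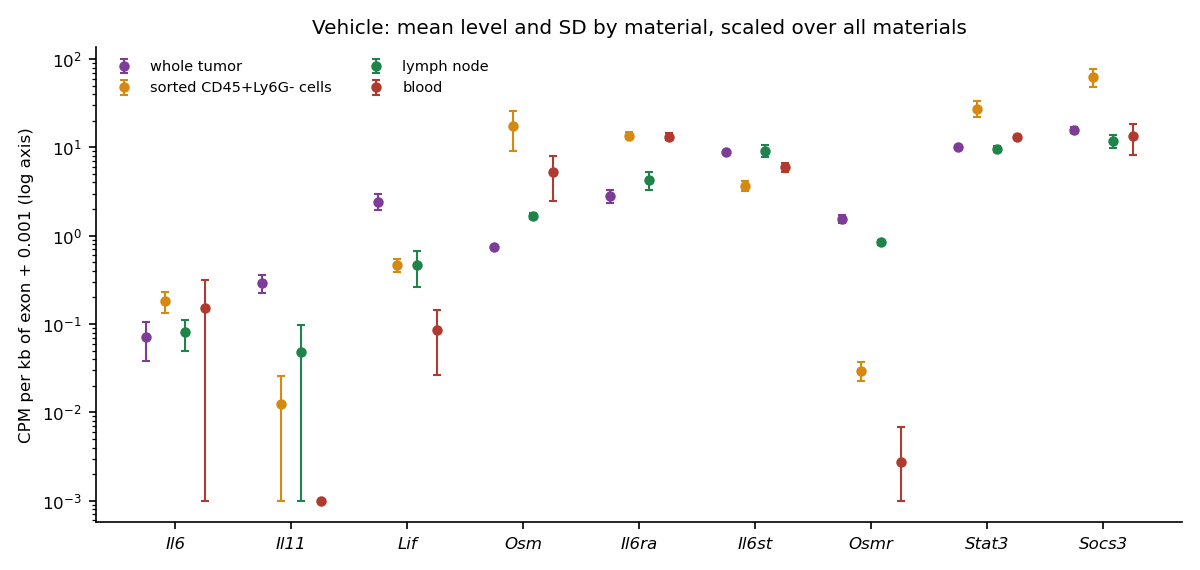
Mean level and SD of the 9 members in vehicle libraries by material, in CPM per kilobase of exon plus 0.001 on a log axis, scaled over all materials; a bar that would pass 0 is drawn down to the axis floor. Osm, Il6ra, Stat3 and Socs3 lie highest in sorted cells or level with blood, while Lif, Il11 and Osmr lie highest in whole tumor.

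The vehicle levels were compared between materials in 1 limma fit over all 50 libraries with the mouse as a random block. Counts are given over members and genes that passed the low-count filter of both materials, since a gene tested only through the material where it is high had to differ. Between sorted cells and whole tumor 7 of 8 such members passed an adjusted p of 0.05, against 63.5% of 15683 such genes. Osm was higher in sorted cells by 4.37 ± 0.54 on the log2 scale (SE; limma adjusted p = 7.79e-09), Il6ra by 2.28 ± 0.25 (7.1e-10), Socs3 by 1.98 ± 0.35 (6.67e-06) and Stat3 by 1.44 ± 0.19 (1.57e-08). Lif differed by -2.38 ± 0.52 (limma adjusted p = 0.000139), Il6st by -1.28 ± 0.22 (3.08e-06) and Osmr by -5.74 ± 0.63 (1.27e-09), all lower in sorted cells. Il11, outside this count, had 0 to 4 counts per vehicle library of sorted cells and 59 to 85 per vehicle tumor library. Il6 alone did not pass, at 1.47 ± 1.00 (limma adjusted p = 0.211). Fewer cells of a type and less RNA per cell cannot be told apart in these bulk libraries. Sorted cells and whole tumors also carry different mouse numbers, so the block pairs none of them. The mice used and the handling for sorting cannot be told apart from the material.

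Against vehicle lymph node, vehicle tumor was higher in Lif by 2.48 ± 0.33 (limma adjusted p = 1.92e-08) and in Osmr by 0.87 ± 0.20 (0.000279), and lower in Il6ra at -0.59 ± 0.21 (0.0126). These are 3 of 8 members tested in both materials, beside 63.3% of 16969 such genes. Il11 was not among them, with 59 to 85 counts per vehicle tumor library and 0 to 24 per vehicle lymph node library. With the left-out libraries included, the Osmr and Il6ra calls were lost, at adjusted p = 0.201 and 0.0816. The Il6ra call was also lost without vehicle tumor 4 or without vehicle lymph node 5, with adjusted p up to 0.0695. Between vehicle tumor and vehicle blood 4 of the 5 members tested in both were called (76.2% of 11847 such genes), with Il6ra at -2.24 ± 0.20 (limma adjusted p = 1.14e-12), Osm at -2.74 ± 0.57 (5.57e-05) and Stat3 at -0.39 ± 0.15 (0.0202), lower in tumor, and Il6st at 0.56 ± 0.18 (0.00531), higher in tumor. The Stat3 call was lost without vehicle tumor 5 (limma adjusted p = 0.0638). Between vehicle blood and vehicle lymph node 4 of the 5 members tested in both were called (68% of 11969 such genes), with Il6ra at 1.65 ± 0.15 (limma adjusted p = 1.77e-12), Osm at 1.57 ± 0.38 (0.000436) and Stat3 at 0.44 ± 0.11 (0.000684), higher in blood, and Il6st at -0.62 ± 0.14 (0.000128), lower in blood.

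Several members were close to or at 0 in blood. Il11 had 0 counts in all 14 blood libraries, where a count of 0 allows up to 0.032 to 0.248 CPM per library, taken as 3 counts. Osmr had 2 counts in total over the 14 libraries, Lif 25 and Il6 55. These 4 genes did not pass the filter on low counts in blood and were not tested there. In sorted cells and in lymph node Il11 alone was not tested, with 27 counts over 10 libraries and 84 counts over 13 libraries. All 9 members were tested in whole tumor.

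In whole tumor ATOR-4066 raised Il6 and Socs3. Il6 was 9.25-fold and Socs3 2.06-fold the vehicle level, and the other cytokines Il11, Lif and Osm lay above vehicle in all 4 ATOR-4066 tumors without passing the test. CD40 mAb tumors passed the test for no member. In ATOR-4066 tumors 2 of 9 members were called against vehicle, both higher, beside 1.32% of 18454 genes called in either direction and 0.916% called higher. With 1 library left out, 0 to 2202 genes were called (243 with all), and the number moved by over 1.5 times in 12 of 13 fits, in all except that without CD40 mAb 3. It was 0 without any vehicle tumor or without ATOR-4066 1 or 2, and highest without CD40 mAb 5. The median log2 difference of the members was 1.04, beside 0.02 over all genes tested.

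Il6 encodes the founding cytokine of the family. Its level was 1.75, 3.07, 6.92 and 1.54 CPM in the ATOR-4066 tumors, against 0.336, 0.450, 0.518 and 0.129 CPM in the vehicle tumors. The CD40 mAb tumors had 0.321, 0.314, 0.222, 0.211 and 0.786 CPM. Every ATOR-4066 tumor lay above every CD40 mAb and vehicle tumor, and ATOR-4066 replicate 4 was the highest. The log2 difference from vehicle was 3.21 ± 0.62 (SE; edgeR adjusted p = 0.042). Leaving out 1 library at a time kept the difference between 2.56 and 3.44. The call was lost in 8 of these 13 fits, with edgeR adjusted p up to 0.164: without any of the 4 vehicle tumors, CD40 mAb 4 or ATOR-4066 1, 2 or 4.

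Socs3, whose protein binds gp130 and stops the signal, was at 168, 224, 231 and 155 CPM in ATOR-4066 tumors, against 86.3, 104, 94.5 and 92.8 CPM in vehicle tumors. The CD40 mAb tumors had 74.0, 74.1, 79.8, 69.5 and 89.9 CPM. All ATOR-4066 tumors were above all others, and 4 of 5 CD40 mAb tumors were below all vehicle tumors. The log2 difference of ATOR-4066 from vehicle was 1.04 ± 0.15 (edgeR adjusted p = 0.0277). It lay between 0.95 and 1.13 with 1 library left out, and the call was lost in 7 of 13 such fits, without any of the 4 vehicle tumors or ATOR-4066 1, 2 or 4. With the left-out tumor included, Il6 differed by 3.03 and Socs3 by 0.91, both at edgeR adjusted p = 0.0656, and 0 genes were called in this comparison; that library held 1.42 CPM of Il6 and 108 CPM of Socs3.

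The other ligands had the same direction but did not pass. Osm was at 8.13, 17.3, 12.5 and 6.02 CPM in ATOR-4066 tumors, against 3.48, 3.49, 3.47 and 3.59 CPM in vehicle tumors, a log2 difference of 1.65 ± 0.41 (edgeR adjusted p = 0.0562). Il11, a cytokine of stroma and epithelium, was at 5.09, 9.55, 2.26 and 2.51 CPM in ATOR-4066 tumors, against 1.01, 1.67, 1.18 and 1.19 CPM in vehicle tumors, at 1.94 ± 0.45 (edgeR adjusted p = 0.0521). Lif was at 87.6, 84.6, 35.1 and 30.8 CPM in ATOR-4066 tumors, against 19.0, 28.1, 22.3 and 18.6 CPM in vehicle tumors, at 1.44 ± 0.37 (edgeR adjusted p = 0.061). For each of the 3 ligands the groups did not overlap, as was so for 27.3% of all genes. DESeq2, and a fit of these groups without the CD40 mAb tumors, called 5 members each, adding Il11, Lif and Osm. They also called many more genes of all kinds, 2443 and 3959, beside 243 in the reported fit.

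The tumors were not ordered alike for all cytokines. Il6 was highest in ATOR-4066 tumor 4, Il11 and Osm in tumor 2 and Lif in tumor 1. ATOR-4066 tumor 5 was the lowest of the group for every member except Il11, which was lowest in tumor 4. The receptors showed no such pattern: Il6st, the gp130 gene, averaged 216 ± 51.2 CPM in ATOR-4066 tumors and 203 ± 8.79 CPM in vehicle tumors (SD, n = 4 each; log2 difference 0.09 ± 0.18, edgeR adjusted p = 0.794). Il6ra averaged 53.9 ± 12.3 CPM in ATOR-4066 tumors and 50.9 ± 8.70 CPM in vehicle tumors (0.08 ± 0.21, edgeR adjusted p = 0.835). Osmr was at 46.1, 50.8, 108.7 and 42.4 CPM in ATOR-4066 tumors, against 39.7, 40.8, 42.7 and 33.3 CPM in vehicle tumors, and tumor 4 stood alone (0.66 ± 0.27, edgeR adjusted p = 0.15). Stat3 averaged 262 ± 66.4 CPM in ATOR-4066 tumors and 198 ± 9.67 CPM in vehicle tumors (0.40 ± 0.20, edgeR adjusted p = 0.221).

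**Figure D2:**
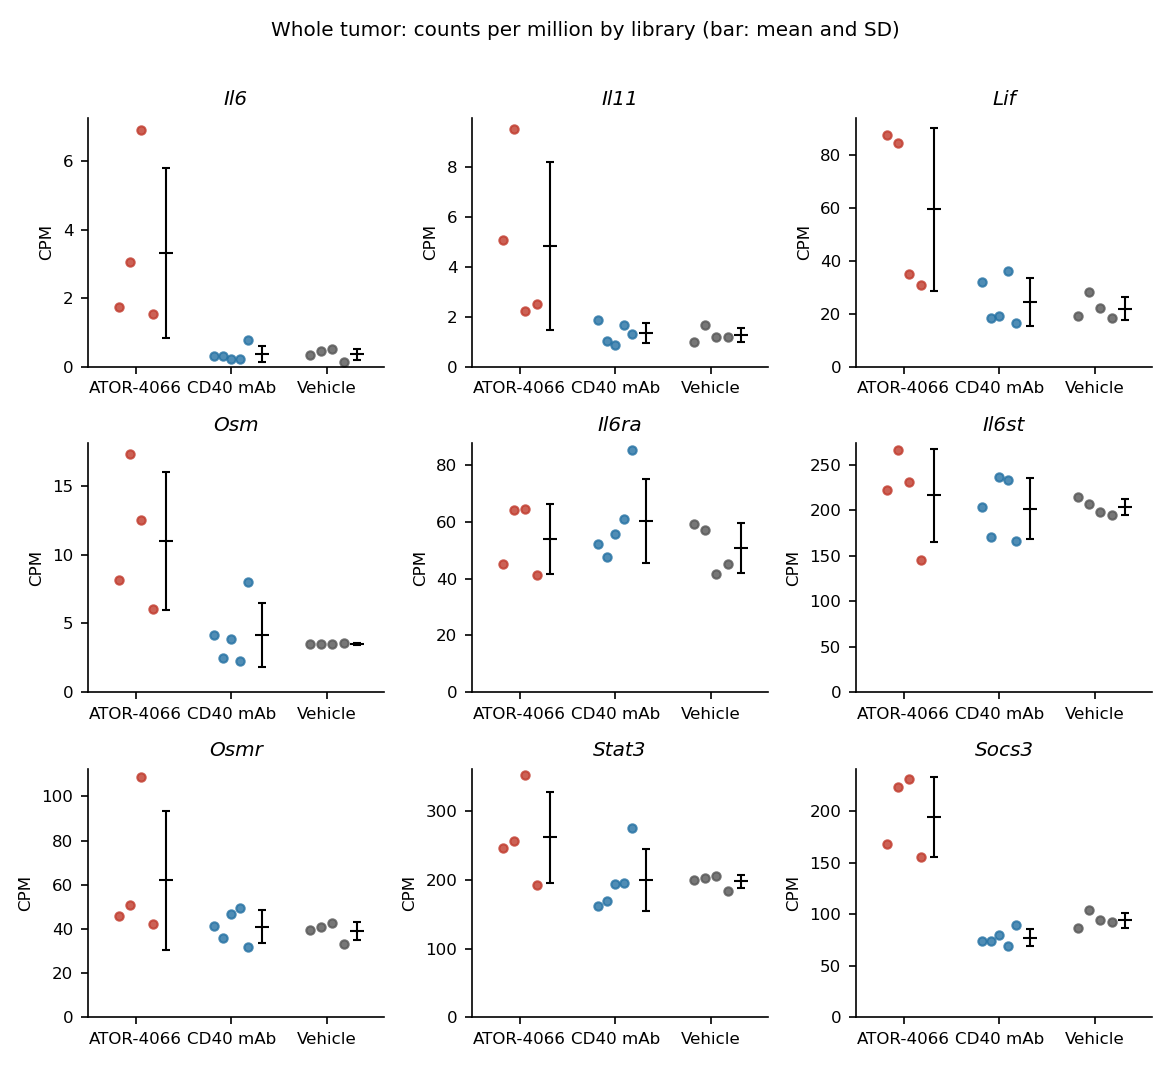
CPM of the 9 members in each whole tumor library by treatment, with the mean and SD beside the points (n = 4 ATOR-4066, 5 CD40 mAb and 4 vehicle). Il6 and Socs3 lie above all other tumors in every ATOR-4066 tumor, while Il6ra and Il6st overlap between treatments.

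CD40 mAb tumors did not differ from vehicle tumors by the test. edgeR called 0 of 18454 genes, with 2205 at an unadjusted p under 0.05, and DESeq2 called 30. No member had an unadjusted p under 0.05 or was called by DESeq2. Il6 averaged 0.371 ± 0.238 CPM in CD40 mAb tumors (SD, n = 5) and 0.358 ± 0.170 CPM in vehicle tumors (n = 4), and Lif averaged 24.4 ± 8.93 CPM in CD40 mAb tumors and 22.0 ± 4.41 CPM in vehicle tumors. Socs3 averaged 77.5 ± 7.87 CPM in CD40 mAb tumors and 94.4 ± 7.25 CPM in vehicle tumors (log2 difference -0.28 ± 0.14, edgeR adjusted p = 0.412).

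Between the antibodies, Socs3 was higher in ATOR-4066 than in CD40 mAb tumors. The log2 difference was 1.33 ± 0.14 (edgeR adjusted p = 0.00489), a 2.51-fold difference seen in 4 of 4 ATOR-4066 tumors, and 1 of 9 members was called beside 0.0325% of all genes. Il6 differed by 3.15 ± 0.57 (edgeR adjusted p = 0.106) and Il11 by 1.84 ± 0.41 (0.169), and neither overlapped between the treatments, as was so for 2.02% of all genes. Osm at 1.41 ± 0.38 (edgeR adjusted p = 0.244) and Lif at 1.28 ± 0.34 (0.241) overlapped. The Socs3 call was lost with the left-out tumor included (1.21, edgeR adjusted p = 0.115) and when the vehicle tumors were left out of the fit (1.35, adjusted p = 0.218). DESeq2 called 5 members, among 324 genes called in all, beside 6 genes in the reported fit. This comparison and the one with vehicle share the ATOR-4066 tumors.

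Markers of other cells moved beside these values. In ATOR-4066 tumors, 4 of 8 tested neutrophil markers rose against vehicle (median log2 difference 3.72), with S100a9, named after its value was seen, at 5.43 ± 1.09 (edgeR adjusted p = 0.0421), but the summed level of the 9 markers overlapped, at 208 to 783 CPM in ATOR-4066 tumors and 313 to 411 CPM in vehicle tumors. Summed fibroblast markers were 4891 to 10070 CPM in ATOR-4066 tumors and 10850 to 15200 CPM in vehicle tumors, while 5 of the 8 markers had a positive difference (median 0.22) and Pdpn alone was called, higher at 2.04 ± 0.27. Col3a1 and Col1a1, the most abundant of the list in vehicle tumors and named after their values were seen, were at -0.97 and -1.22 without passing the test (edgeR adjusted p = 0.0871 and 0.0732). The platelet gene Pf4 also rose, at 2.13 ± 0.42 (edgeR adjusted p = 0.042), and summed platelet markers were 58.1 to 164 CPM in ATOR-4066 tumors and 22.6 to 29.5 CPM in vehicle tumors. Summed macrophage markers were 3595 to 6267 CPM in ATOR-4066 tumors and 4915 to 7129 CPM in vehicle tumors. No marker of these lists was at 0 in all tumors. Their part in the cytokine and Socs3 differences was not tested.

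In sorted CD45+Ly6G- cells Lif was the member that passed. It encodes leukemia inhibitory factor, another gp130 ligand. Lif was at 11.9, 8.09 and 12.8 CPM in ATOR-4066 cells, 5.68, 8.12 and 5.59 CPM in CD40 mAb cells and 4.27, 2.98, 4.34 and 3.56 CPM in vehicle cells. All ATOR-4066 and all CD40 mAb samples were above all vehicle samples, and the ATOR-4066 and CD40 mAb samples overlapped. Against vehicle, Lif rose by 1.53 ± 0.25 on the log2 scale in ATOR-4066 cells (2.88-fold, edgeR adjusted p = 0.0102), and kept its call with any 1 library left out. It was the only one of 8 tested members called, beside 11.9% of 16667 genes called and 6.76% called higher, so the share of members called was near the share of all genes. The median log2 difference of the tested members was 0.14, beside -0.02 over all genes. In CD40 mAb cells Lif differed from vehicle by 0.77 ± 0.25 (edgeR adjusted p = 0.133), and 21.5% of all genes had no overlap in that comparison.

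Il6 in sorted cells was at 2.82, 2.74 and 1.91 CPM in ATOR-4066 samples, 1.13, 2.43 and 0.561 CPM in CD40 mAb samples and 0.755, 0.802, 1.11 and 0.602 CPM in vehicle samples. The ATOR-4066 samples were above the vehicle samples, as was so in either direction for 28.3% of all genes, and the difference of 1.61 ± 0.51 did not pass (edgeR adjusted p = 0.0663). Il6ra, the IL-6 binding receptor chain of myeloid cells and T cells, was at 169, 121 and 53.5 CPM in ATOR-4066 samples, 278, 187 and 224 CPM in CD40 mAb samples and 216, 208, 246 and 199 CPM in vehicle samples. All ATOR-4066 samples were below all others, at -0.92 ± 0.32 against vehicle (edgeR adjusted p = 0.0858) and -1.001 ± 0.33 against CD40 mAb (0.0898), where 30.6% of all genes did not overlap. Without the lowest of them, ATOR-4066 9, the difference from vehicle was -0.59 (edgeR adjusted p = 0.1).

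The remaining members of sorted cells overlapped between ATOR-4066 and vehicle. Osm was at 212, 105 and 41.3 CPM in ATOR-4066 samples and 106, 64.1, 97.97 and 27.0 CPM in vehicle samples. Socs3 averaged 318 ± 152 CPM in ATOR-4066 samples (SD, n = 3) and 338 ± 77.9 CPM in vehicle samples (n = 4), a log2 difference of -0.09 ± 0.30 (edgeR adjusted p = 0.882). Stat3 averaged 482 ± 74.4 CPM in ATOR-4066 samples and 485 ± 96.5 CPM in vehicle samples. CD40 mAb against vehicle had 0 of 8 members called (1 at an unadjusted p under 0.05, and 1 by DESeq2), beside 1.09% of all genes. ATOR-4066 against CD40 mAb had 0 of 8 called (2 unadjusted, and 2 by DESeq2), beside 8.23% of all genes.

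The cell makeup of the sorted samples differed by treatment. All 8 T cell markers rose in ATOR-4066 samples against vehicle, and their summed level was 1691 to 3851 CPM in ATOR-4066 samples and 608 to 890 CPM in vehicle samples. Summed macrophage markers were 706 to 3978 CPM in ATOR-4066 samples and 7514 to 9729 CPM in vehicle samples, with 3 of 9 markers lower, and summed monocyte markers were 1669 to 4191 CPM in ATOR-4066 samples and 5283 to 6375 CPM in vehicle samples, with 1 of 6 lower. B cell markers were at 373 CPM in 1 ATOR-4066 sample and at 14.3 to 18.01 CPM in vehicle samples. Of 8 fibroblast markers, Thy1, which T cells also carry, rose and Col3a1 and Dcn fell, and of 4 tested epithelial markers Krt8 and Krt19 rose, with the summed epithelial level at 6.21 to 13.9 CPM in ATOR-4066 samples and 2.29 to 3.89 CPM in vehicle samples. Neutrophil markers rose for 2 of 7 tested, with their sums overlapping. ATOR-4066 6 stood apart in its erythroid markers, which summed to 5871 CPM there and to 33.6 to 358 CPM in the other 9 sorted samples. Haemoglobin took 0.602% of its counts, and the 5 erythroid markers tested were above vehicle (median log2 difference 3.25) with 0 called. How far these shifts enter the Lif, Il6 and Il6ra values was not tested.

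**Figure D3:**
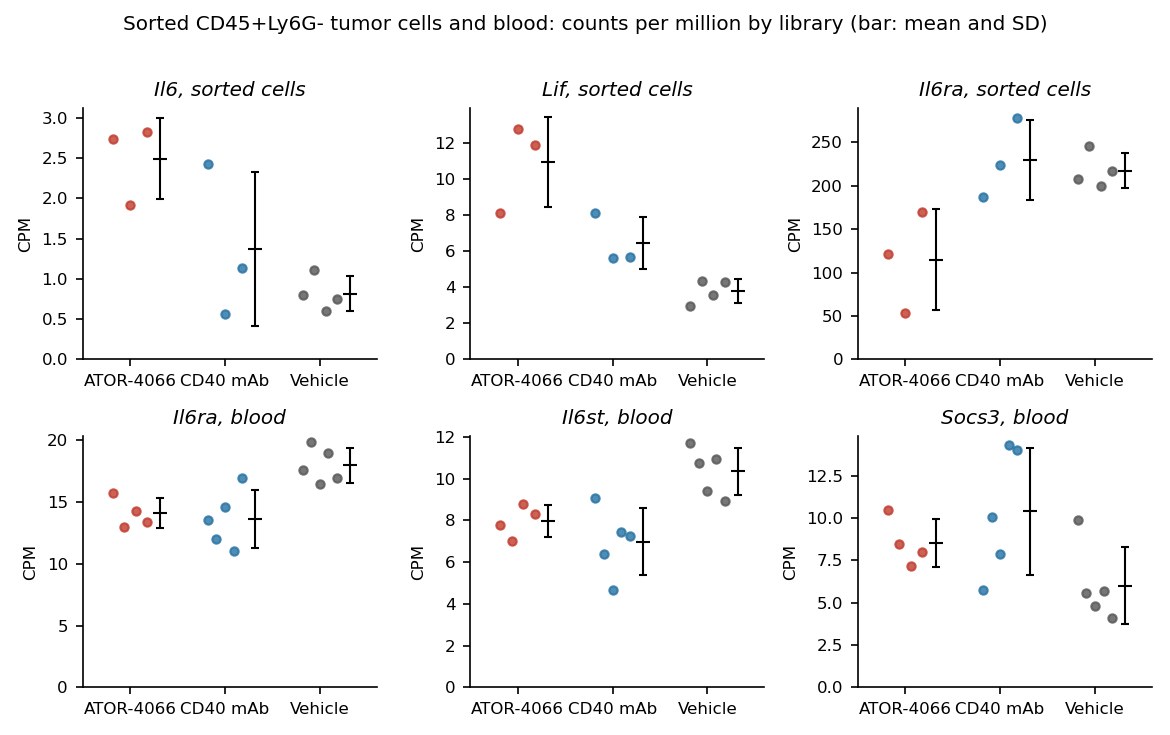
CPM by library for Il6, Lif and Il6ra in sorted tumor cells (upper row; n = 3 ATOR-4066, 3 CD40 mAb, 4 vehicle) and for Il6ra, Il6st and Socs3 in blood (lower row; n = 4, 5 and 5), with the mean and SD beside the points. In sorted cells ATOR-4066 samples lie above vehicle for Lif and below it for Il6ra.

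In lymph node no member passed the test in any comparison. For ATOR-4066 against vehicle, edgeR called 0 of 18671 genes, with 2954 at an unadjusted p under 0.05, and DESeq2 called 503. Of the 8 members tested, 3 had an unadjusted p under 0.05, and DESeq2 called Socs3 (adjusted p = 0.0494). Socs3 was at 123, 242.6, 138.5, 86.6 and 93.8 CPM in ATOR-4066 lymph nodes, 76.3, 159, 96.7 and 87.0 CPM in CD40 mAb lymph nodes and 65.6, 90.4, 70.1 and 63.5 CPM in vehicle lymph nodes. In ATOR-4066 nodes 4 of 5 were above all vehicle nodes, at a log2 difference of 0.92 ± 0.31 (edgeR adjusted p = 0.231).

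Il6 in lymph node was at 0.615, 4.72, 0.808, 0.237 and 1.21 CPM in ATOR-4066 mice and 0.585, 0.443, 0.356 and 0.230 CPM in vehicle mice, a log2 difference of 1.91 ± 0.73 (edgeR adjusted p = 0.262). ATOR-4066 lymph node 2 was the highest of the group for Il6, Lif, Osm, Stat3 and Socs3. Without it the Il6 difference was 0.85 and the Socs3 difference 0.61, at edgeR adjusted p = 0.538 and 0.427. Osm averaged 10.2 ± 3.59 CPM in ATOR-4066 nodes (SD, n = 5) and 8.05 ± 0.521 CPM in vehicle nodes (n = 4). Il6ra, Il6st, Osmr and Lif differed from vehicle by 0.17, 0.06, -0.08 and 0.08 on the log2 scale. CD40 mAb against vehicle called 0 of 8 members, with 0 at an unadjusted p under 0.05 and 0 by DESeq2, beside 0.0643% of all genes. ATOR-4066 against CD40 mAb called 0 of 8 (1 unadjusted, and 0 by DESeq2), beside 0.0161% of all genes. Summed markers of muscle and fat ran from 6.37 to 990 CPM in ATOR-4066 nodes, 50.4 to 743 CPM in CD40 mAb nodes and 776 to 2262 CPM in vehicle nodes, and their part was not tested.

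In blood the scaled levels of the receptor genes Il6ra and Il6st were lower, and that of Socs3 higher, with CD40 mAb than with vehicle. These are 3 of the 5 members tested, beside 34.6% of 12184 genes called, 22.2% higher and 12.4% lower, so many genes outside this axis were called as well. Blood levels are CPM on scaled library sizes, and this scaling differed between treatments. Summed erythroid markers were 847900 to 2664000 CPM in CD40 mAb blood and 304600 to 471300 CPM in vehicle blood. Stat3 had 278 to 505 counts in CD40 mAb blood and 1108 to 1766 in vehicle blood, at means of 20.1 and 19.5 CPM. The direction and size of each blood difference rest on this scaling, and these CPM are not set against other materials. Il6st was at 9.06, 6.41, 4.68, 7.45 and 7.26 CPM in CD40 mAb blood and 11.7, 10.8, 9.42, 10.9 and 8.93 CPM in vehicle blood. It fell by 0.57 ± 0.15 on the log2 scale (edgeR adjusted p = 0.00674), and 4 of 5 CD40 mAb samples were below all vehicle samples. Il6ra was at 13.5, 11.98, 14.6, 11.0 and 16.97 CPM in CD40 mAb blood and 17.6, 19.9, 16.5, 19.0 and 16.9 CPM in vehicle blood. It fell by 0.40 ± 0.12 (edgeR adjusted p = 0.02), again with 4 of 5 samples below all vehicle samples, and the call was lost without CD40 mAb 2 (adjusted p = 0.0546).

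Socs3 in blood was at 5.75, 10.1, 7.86, 14.3 and 14.0 CPM in CD40 mAb mice and 9.89, 5.57, 4.795, 5.70 and 4.13 CPM in vehicle mice. The groups overlapped through vehicle 1, and 3 of 5 CD40 mAb samples were above all vehicle samples. Its scaled level rose by 0.77 ± 0.26 (1.71-fold, edgeR adjusted p = 0.0327). Its unscaled counts were lower, at 173 to 257 per library in CD40 mAb blood and 281 to 928 in vehicle blood, so the direction rests on the scaling. The call was lost with no filter on low counts (adjusted p = 0.115), when the ATOR-4066 samples were left out of the fit (0.0616), and without any of vehicle 2, 3, 4 and 5 or CD40 mAb 2, 4 and 5, with adjusted p up to 0.0929. Stat3 averaged 20.1 ± 3.22 CPM in CD40 mAb blood and 19.5 ± 0.668 CPM in vehicle blood (SD, n = 5 each). Osm, which neutrophils and monocytes make, was at 1.34, 4.03, 1.95, 4.72 and 3.98 CPM in CD40 mAb blood and 3.57, 1.47, 1.502, 1.71 and 1.07 CPM in vehicle blood (log2 difference 0.72 ± 0.36, edgeR adjusted p = 0.139).

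ATOR-4066 blood passed the test for no member against vehicle, with 2 of 5 at an unadjusted p under 0.05 and 0 called by DESeq2, beside 0.435% of all genes. Il6ra was at 15.7, 13.0, 14.3 and 13.4 CPM in ATOR-4066 blood, below all vehicle samples (-0.35 ± 0.13, edgeR adjusted p = 0.223). Il6st was at 7.79, 7.01, 8.78 and 8.30 CPM in ATOR-4066 blood, also below all vehicle samples (-0.38 ± 0.15, edgeR adjusted p = 0.255). Such separation was found for 10.5% of all genes. Haemoglobin took 78.1 to 88.2% of counts in ATOR-4066 blood and 69.8 to 76.0% in vehicle blood. The other counts were 4141108 to 9077505 in ATOR-4066 blood and 8535869 to 11551544 in vehicle blood. The part of this in the Il6ra and Il6st values was not tested. A fit of these groups without CD40 mAb called both, at adjusted p = 0.0333 and 0.0395, among 1062 genes called in all, beside 53 in the reported fit. Against CD40 mAb, Osm was at 1.30, 1.38, 0.893 and 1.49 CPM in ATOR-4066 blood, a log2 difference of -1.29 ± 0.41 (edgeR adjusted p = 0.0538). No member was called there (1 unadjusted, and 1 by DESeq2), beside 13.1% of all genes.

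Blood composition markers differed with CD40 mAb. All 9 neutrophil markers and all 7 erythroid markers rose against vehicle, 5 of 6 B cell markers fell, and 4 of 5 platelet markers and 3 of 4 tested endothelial markers rose. Summed neutrophil markers were 222.5 to 1077 CPM in CD40 mAb blood and 112 to 233 CPM in vehicle blood, and summed B cell markers were 100.2 to 256 CPM in CD40 mAb blood and 256 to 317 CPM in vehicle blood. Haemoglobin took 77.5 to 81.2% of counts in CD40 mAb blood and 69.8 to 76.0% in vehicle blood, and the other counts were 6305125 to 8627686 in CD40 mAb blood and 8535869 to 11551544 in vehicle blood. Their part in the Il6ra, Il6st and Socs3 differences was not tested.

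**Figure D4:**
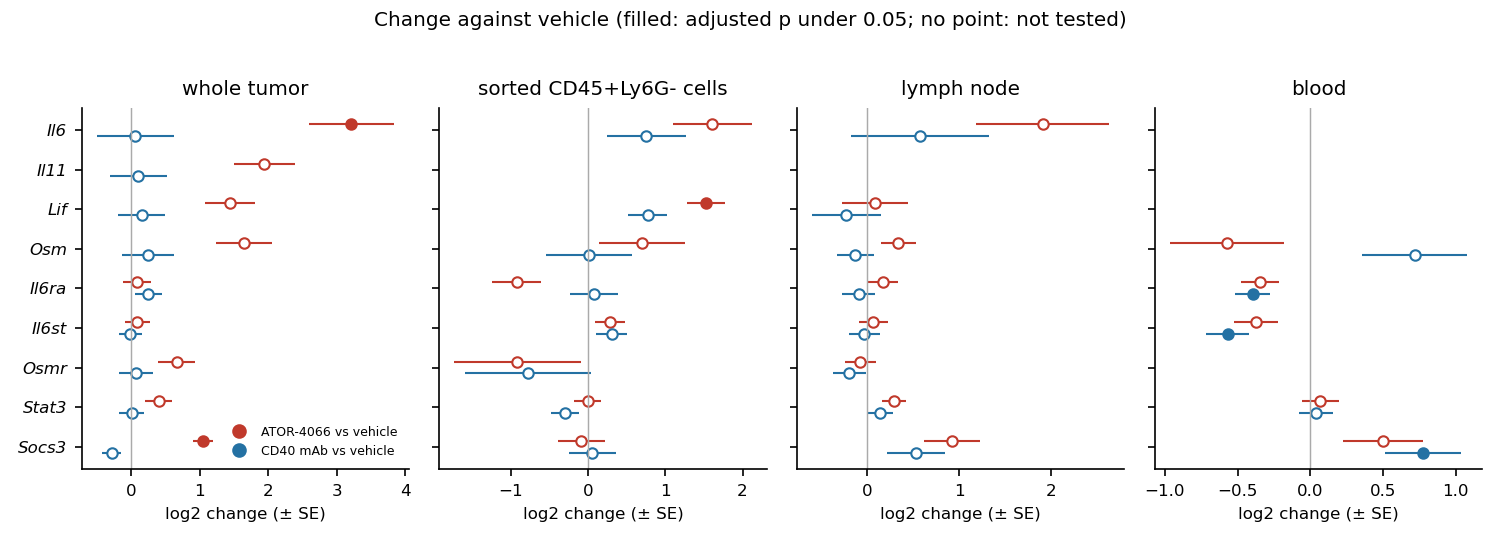
Log2 difference from vehicle with its SE for the 9 members, for ATOR-4066 (red) and CD40 mAb (blue) in the 4 materials, each panel with its own horizontal axis; filled points passed an edgeR adjusted p of 0.05 and genes without a point were not tested. Filled points are Il6 and Socs3 in ATOR-4066 tumors, Lif in ATOR-4066 sorted cells, and Il6ra, Il6st and Socs3 in CD40 mAb blood.

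Whether a drug effect differed between materials was tested directly for each member. Over members tested in both materials there were 52 such tests, of which 1 passed and 11 had an unadjusted p under 0.05. For ATOR-4066 the share of all genes tested in both that were called was 10.2% for tumor minus lymph node, 1.11% for tumor minus blood, 1.32% for lymph node minus blood and 13.3% for sorted cells minus tumor. For CD40 mAb these shares were 6.82%, 12.4%, 26.3% and 0.542%. The effect of ATOR-4066 on Il6ra was lower in sorted cells than in whole tumor by -1.13 ± 0.37 on the log2 scale (limma adjusted p = 0.046), in the contrast with 13.3% of such genes called. This call was lost in 9 of 50 fits with 1 library left out, with adjusted p up to 0.318: without any of vehicle sorted 6, 7, 9 and 10, vehicle tumor 4 and 5, ATOR-4066 tumor 2 and 4 or ATOR-4066 sorted 9. Sorted cells and whole tumors carry different mouse numbers, so mice and material cannot be told apart in this contrast. The ATOR-4066 effect on Socs3 was -1.18 ± 0.52 for sorted cells minus tumor (limma adjusted p = 0.15), and that on Lif was 1.18 ± 0.43 for tumor minus lymph node (0.0796). For Il6 the tumor minus lymph node difference was 1.72 ± 1.00 (limma adjusted p = 0.305). So the Il6 effect is not shown to differ between these materials. The CD40 mAb effect on Il6st was 0.65 ± 0.25 for lymph node minus blood (limma adjusted p = 0.0501), and 0.68 (0.0473) with the left-out libraries included.

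Genes known as STAT3 targets were counted from a list of 21 that does not include Socs3. This list and those of other pathway genes were chosen with earlier results of these data known. The counts set beside shares of all genes are therefore descriptions and no independent test. In ATOR-4066 tumors 4 of 21 rose against vehicle and 0 fell, beside 0.916% of all genes called higher, 20 of 21 had a positive difference, and the median was 0.76, beside 0.02 over all genes. Saa3, an acute-phase protein, averaged 193 ± 88.9 CPM in ATOR-4066 tumors and 21.9 ± 10.5 CPM in vehicle tumors (3.13 ± 0.58, edgeR adjusted p = 0.0407). Lcn2, the iron-binding lipocalin of neutrophils and inflamed epithelium, averaged 26.4 ± 9.18 CPM in ATOR-4066 tumors and 4.56 ± 0.886 CPM in vehicle tumors (2.53 ± 0.56, edgeR adjusted p = 0.049). Cebpb, a transcription factor of myeloid and acute-phase genes, averaged 172.5 ± 14.7 CPM in ATOR-4066 tumors and 55.5 ± 5.61 CPM in vehicle tumors (1.64 ± 0.28, edgeR adjusted p = 0.0399). Junb, an AP-1 subunit, averaged 291 ± 53.0 CPM in ATOR-4066 tumors and 167 ± 8.49 CPM in vehicle tumors (0.80 ± 0.16, edgeR adjusted p = 0.0433). Each of these 4 calls was lost in 8 to 10 of 13 fits with 1 library left out, and all were lost with the left-out tumor included. In the same tumors 4 of 8 tested neutrophil markers rose, with overlapping sums, and the part of cell makeup in these 4 differences was not tested. In CD40 mAb tumors edgeR called 0 of 21 (4 at an unadjusted p under 0.05, and 1 by DESeq2), with Saa3 at 1.96 ± 0.54 and Lcn2 at 2.43 ± 0.54 against vehicle, both at edgeR adjusted p = 0.412. There 17 of 21 had a positive difference, with a median of 0.37, beside 0.07 over all genes. Between the antibodies in tumor, edgeR called 0 of 21 (7 at an unadjusted p under 0.05, and 3 by DESeq2). Of these targets 18 had a positive difference, with a median of 0.43, beside -0.07 over all genes.

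In CD40 mAb blood 9 of 19 tested targets rose against vehicle and 1 fell, beside 22.2% of all genes called higher and 12.4% lower. Pim1, a survival kinase, averaged 111 ± 53.7 CPM in CD40 mAb blood and 29.1 ± 4.67 CPM in vehicle blood (1.93 ± 0.30, edgeR adjusted p = 0.000185). Lcn2 rose by 2.36 ± 0.51 (edgeR adjusted p = 0.00342), Steap4, a metalloreductase, by 1.59 ± 0.40 (0.0073) and Lrg1, an acute-phase glycoprotein, by 1.86 ± 0.45 (0.00609), while Il4ra, the interleukin-4 receptor chain, named as the only one lower, fell by 0.31 ± 0.11 (0.0338). The Il4ra call was lost in 7 of 14 fits with 1 library left out, without vehicle 1, 2, 3 or 5 or CD40 mAb 2, 3 or 4 (edgeR adjusted p up to 0.0848), and with no filter on low counts (0.0581). Among the 9 that rose, Cebpb lost its call in 8 of these fits and Hp, which encodes haptoglobin, in 7, with edgeR adjusted p up to 0.13 and 0.127. Lcn2, Lrg1 and Hp are also made by neutrophils, whose markers rose in the same samples, and the part of these cells in the differences was not tested. Against CD40 mAb, Pim1 in ATOR-4066 blood was lower at -1.27 ± 0.32 (edgeR adjusted p = 0.014; 0.0589 without ATOR-4066 5), 2 of 19 targets fell and 0 rose, beside 10.8% of all genes called lower. In ATOR-4066 sorted cells 2 of 20 targets rose against vehicle, Batf at 0.84 ± 0.14 (edgeR adjusted p = 0.0102) and Junb at 1.15 ± 0.29 (0.0302), beside 6.76% of all genes called higher, and the list's median was 0.0015. The Junb call was lost in 5 of 10 fits with 1 library left out, without vehicle 6, 9 or 10 or ATOR-4066 6 or 9 (edgeR adjusted p up to 0.0795), and when the CD40 mAb samples were left out (0.0509). In lymph node edgeR called 0 of 21 in each comparison, with 5 at an unadjusted p under 0.05 for ATOR-4066 and 4 for CD40 mAb against vehicle and 2 between the antibodies, where DESeq2 called 0, 1 and 1.

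**Figure D5:**
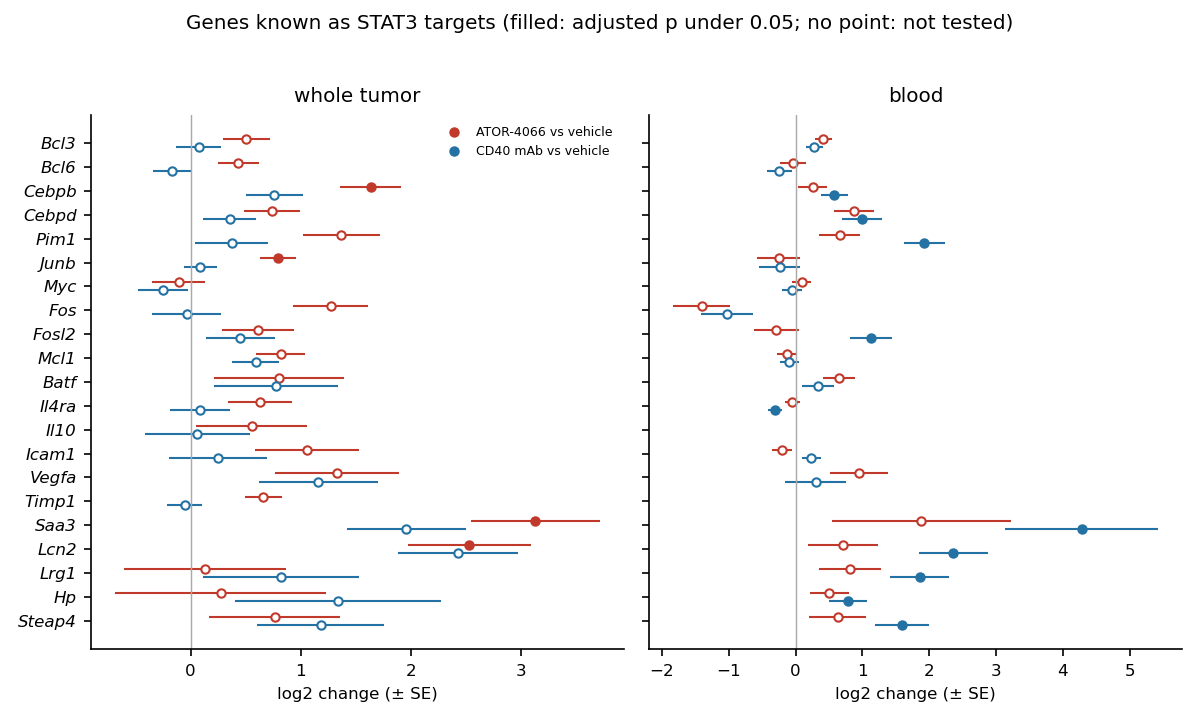
Log2 difference from vehicle with its SE for the 21 genes known as STAT3 targets in whole tumor and blood, for ATOR-4066 (red) and CD40 mAb (blue), with a separate axis for each panel; filled points passed an edgeR adjusted p of 0.05. Filled points are Cebpb, Junb, Saa3 and Lcn2 in ATOR-4066 tumors and 10 genes in CD40 mAb blood.

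Other receptors and regulators of the pathway passed mainly in sorted cells and blood. In ATOR-4066 sorted cells Lifr, the receptor chain for LIF, fell by 1.39 ± 0.20 on the log2 scale against vehicle (edgeR adjusted p = 0.00724), at 12.9 ± 2.91 CPM in ATOR-4066 samples (SD, n = 3) and 33.8 ± 5.48 CPM in vehicle samples (n = 4). Il27ra, a receptor chain of T cells that pairs with gp130, rose by 1.59 ± 0.32 (edgeR adjusted p = 0.0163), at 125 ± 62.6 CPM in ATOR-4066 samples and 41.6 ± 8.51 CPM in vehicle samples. These are 2 of 4 tested receptors outside the members, beside 11.9% of all genes called. T cell markers rose in the same samples, and the part of T cells in these differences was not tested. The Il27ra call was lost without vehicle 10 (edgeR adjusted p = 0.0538). Of 11 kinases, regulators and shedding proteases, the phosphatase gene Ptpn6 alone passed there, falling by 0.84 ± 0.16 (edgeR adjusted p = 0.0132), beside 5.11% of all genes called lower. Against CD40 mAb, ATOR-4066 sorted cells had Cish, a STAT5-induced inhibitor, higher by 1.15 ± 0.21 (edgeR adjusted p = 0.0181) and Ebi3, a subunit of IL-27, lower at -0.79 ± 0.21 (0.046), beside 8.23% of all genes called. The Ebi3 call was lost in 9 of 10 fits with 1 library left out, in all except that without ATOR-4066 10 (edgeR adjusted p up to 0.138), and the Cish call without CD40 mAb 7 or 10 (up to 0.0786). Both were lost when the vehicle samples were left out, at 0.142 for Ebi3 and 0.093 for Cish.

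In CD40 mAb blood 5 of the 11 kinases and regulators rose against vehicle and 2 fell, beside 22.2% of all genes called higher and 12.4% lower. Socs1, a relative of Socs3 that inhibits Janus kinases, rose by 1.18 ± 0.29 on the log2 scale (edgeR adjusted p = 0.00487), and Adam10, a protease that can shed the IL-6 receptor, by 0.57 ± 0.14 (0.00449). Jak2 rose by 0.57 ± 0.14 (edgeR adjusted p = 0.00564), and Ptpn11, the phosphatase that binds gp130, by 0.80 ± 0.20 (0.00573). Tyk2 at -0.35 ± 0.11 and Ptpn6 at -0.41 ± 0.13, named after their values were seen, fell (edgeR adjusted p = 0.0215 and 0.0251). The Tyk2 call was lost without vehicle 1 or 4 or CD40 mAb 2 or 4 and the Ptpn6 call without vehicle 2 or CD40 mAb 4, with edgeR adjusted p up to 0.0592 and 0.0608. In whole tumor edgeR called 0 of these 11 in the 3 comparisons, and 0 of 6 other ligands and 0 of 4 other receptors tested. For ATOR-4066 against vehicle tumor, 2, 2 and 1 genes of these lists had an unadjusted p under 0.05, and DESeq2 called 1, 1 and 0. For CD40 mAb against vehicle the unadjusted counts were 0, 0 and 1, with 0 by DESeq2, and for ATOR-4066 against CD40 mAb they were 2, 2 and 0, with 0, 1 and 0 by DESeq2.

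The genes most like Il6, Osm and Socs3 were found by Pearson correlation of mean log2-CPM over the 12 groups of material and treatment, among 10472 genes. These values are descriptions over groups that share material, scaling and, in part, mice. For Il6 they were Clec4e (r = 0.833), a myeloid receptor for damaged cells, Il1r2 (0.827), the decoy receptor of interleukin-1, Cd274 (0.814), which encodes PD-L1, Flot1 (0.774) and Fbxl5 (0.768). For Socs3 they were Tap1 (0.967), which loads peptides for MHC class I, Snx18 (0.951), Entpd1 (0.951), which encodes CD39, Ly6i (0.948) and Casp1 (0.945), the protease that matures interleukin-1 beta. For Osm they were Per1 (0.985), a clock gene, Sema4a (0.983), Atp8b4 (0.98), Exoc2 (0.979) and Prf1 (0.978), which encodes perforin.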

How the data were processed

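Libraries were made with a stranded mRNA kit, per the labels' protocols. The deposited values are expected counts (estimated counts per gene, salmon per the table's name), not scaled for depth or length. The submitters' processing notes name build GRCm38 and STAR; counting settings and annotation were not stated. Fractional values, 11% of the table, were rounded. All 52 columns matched a labelled sample, and no 2 held identical values. For each of the 4 materials, edgeR 4.0.16 (R 4.3.3) fitted the 3 treatments in a single model with filterByExpr (count minimum 10, total 15), TMM scaling and the robust quasi-likelihood F test. Benjamini-Hochberg adjustment ran over every tested gene, and an adjusted p under 0.05 was a call. CPM values use the TMM-scaled sizes of that material. Differences between materials came from voomLmFit and limma 3.58.1 over all libraries, with sample weights by material and the mouse as random block (correlation -0.0153). Fits were tested on simulated counts. Members were taken by symbol; from 4 lists of other pathway genes up to 4 of smallest p were named per comparison, plus the 5 genes most alike in pattern. Members and lists were chosen with earlier results of these data known. Alternatives were DESeq2 1.42.0, other size factors, no filter, a replicate block, only the groups compared, each library left out, the left-out libraries included, haemoglobin removed and no mouse block.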

Additional observations from a re-analysis of the deposited data

Results flagged for a closer look

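In 74 groups of 4 to 5 libraries, the highest or lowest member value was compared with the rest of its group by Dixon's ratio at the 95% level. That flagged 9 values, and chance alone flags about 1 in 20 groups, or 5%. Of these, 4 came from lymph node, and ATOR-4066 lymph node 2 gave 3: Il6 at 4.72 CPM (next highest 1.21), Lif at 8.47 CPM (4.45) and Osm at 16.5 CPM (9.06). Osmr in CD40 mAb lymph node 4 was at 24.3 CPM, with the next at 17.2 CPM. In tumor, Il6 of CD40 mAb 5 was at 0.786 CPM (next 0.321), Osmr of ATOR-4066 4 at 108.7 CPM (next 50.8), and Osm of vehicle 5 at 3.59 CPM, where the other vehicle tumors lay between 3.47 and 3.49 CPM. In blood, vehicle 1 was apart for Osm at 3.57 CPM (next 1.71) and for Socs3 at 9.89 CPM (next 5.70). The effect of ATOR-4066 on Il6ra differed between materials, at -1.13 for sorted cells minus whole tumor on the log2 scale (limma adjusted p = 0.046). In that contrast 1 of 8 members tested in both was called, beside 13.3% of such genes. The Il6ra call was lost in 9 of 50 fits with 1 library left out.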

How the results depend on the processing

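Counts of called members follow, with the count of the reported fit in brackets. Those between materials are taken over every member in that fit, including members that did not pass the low-count filter of both materials. DESeq2 called 5 in tumor ATOR-4066 against vehicle (2), 5 in tumor ATOR-4066 against CD40 mAb (1), 3 in sorted ATOR-4066 against vehicle (1), 1 in sorted CD40 mAb against vehicle (0), 2 in sorted ATOR-4066 against CD40 mAb (0), 1 in lymph node ATOR-4066 against vehicle (0) and 1 in blood ATOR-4066 against CD40 mAb (0). With only the groups compared in the fit, the counts were 5, 0 and 2 in the first 3 of these, 2 in blood ATOR-4066 against vehicle (0) and 1 in blood ATOR-4066 against CD40 mAb. With the left-out libraries included, they were 0 in both tumor comparisons of ATOR-4066, 1 for the CD40 mAb effect in lymph node minus blood (0) and 2 for vehicle tumor minus lymph node (4). With edgeR and no mouse block, they were 1 for the ATOR-4066 effect in tumor minus blood (0) and 2 in sorted cells minus tumor (1), and Osmr, near 0 in blood, turned sign for the CD40 mAb effect in lymph node minus blood, at 3.36 (reported fit -1.67). Other size factors and removing haemoglobin changed no call of a member. With 1 library left out, the counts ran over 0 to 5 in tumor ATOR-4066 against vehicle, 1 to 3 in tumor and 0 to 1 in sorted and blood ATOR-4066 against CD40 mAb, 1 to 2 in sorted ATOR-4066 against vehicle, 1 to 4 in blood CD40 mAb against vehicle, 0 to 2 for the ATOR-4066 effect in sorted cells minus tumor, 0 to 1 in tumor minus lymph node and 0 to 2 for the CD40 mAb effect in lymph node minus blood. The vehicle levels, here counted over every member in the fit across materials, gave 6 to 7 in tumor minus blood (7) and 3 to 5 in tumor minus lymph node (4). In the reported fit 66.5% and 61.6% of all 21410 genes were called. Over members tested in both materials that fit called 4 of 5 and 3 of 8. The other called members passed the filter in tumor alone, where they are high, so they had to differ. The causes were not tested.

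Counts of all called genes are given for ATOR-4066 minus vehicle, then CD40 mAb minus vehicle, then ATOR-4066 minus CD40 mAb. With DESeq2 they were 2443, 30 and 324 in tumor (243, 0 and 6 reported), 3532, 1527 and 3012 in sorted cells (1977, 182 and 1372), 503, 1833 and 152 in lymph node (0, 12 and 3), and 451 in the first blood comparison (53). With only the groups compared they gave 3959, 0 and 0 in tumor, 732 and 3 in the last 2 of sorted cells, 808 and 0 in those of lymph node, and 1062 and 832 in blood with ATOR-4066 (53 and 1593). Without the filter, tumor ATOR-4066 against vehicle gave 57, sorted CD40 mAb 391 and lymph node CD40 mAb 171. With the left-out libraries included, tumor and lymph node gave 0 throughout. For the ATOR-4066 effect, that setting and edgeR without mouse block gave 21 and 773 in tumor minus lymph node (1814) and 39 and 103 in lymph node minus blood (189), and without mouse block 485 in tumor minus blood (152) and 3521 in sorted cells minus tumor (2158). For the CD40 mAb effect they gave 0 and 20 in tumor minus lymph node (1178), 3125 and 2967 in lymph node minus blood (4898) and 19 and 744 in sorted cells minus tumor (86). With 1 library left out, the counts ran over 0 to 2202, 0 to 0 and 1 to 314 in tumor, 627 to 2525, 2 to 750 and 105 to 2422 in sorted cells, 0 to 17, 0 to 690 and 0 to 4 in lymph node, and 0 to 334, 3434 to 5433 and 914 to 3026 in blood. For the ATOR-4066 effect they ran over 928 to 3364 in tumor minus lymph node, 75 to 574 in tumor minus blood, 88 to 1239 in lymph node minus blood and 1002 to 3018 in sorted cells minus tumor, and for the CD40 mAb effect over 540 to 2786, 1507 to 3892, 4246 to 7546 and 21 to 239 in the same order. The shares of all genes printed beside the members move with these counts.

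A replicate block gave 0 called members in both tumor comparisons of ATOR-4066, and Socs3 in blood CD40 mAb against vehicle lost its call (0.81, adjusted p = 0.0622). It gave 0 genes in tumor, 1090, 14 and 363 in sorted cells, 0, 1 and 1 in lymph node, and 6 and 2 in blood with ATOR-4066. The number marks different mice in different treatments, and no pairing by number is stated in the labels. Same-numbered tumors had a median correlation of -0.0766 (-0.343 to 0.36), with 2 of 12 pairs above 0.1. Tumors of different numbers had a median of 0.0241, with 17 of 44 pairs above 0.1. So few pairs cannot exclude a factor shared by equal numbers. Depth limits Il6 in vehicle tumor (8 to 26 counts) and the members near 0 in blood.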

Other observations

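Other ligands and receptors of the family were measured in the tumor without passing the test. Clcf1, which encodes cardiotrophin-like cytokine, averaged 41.2 ± 4.04 CPM in ATOR-4066 tumors and 29.4 ± 6.87 CPM in vehicle tumors (log2 difference 0.49 ± 0.15, edgeR adjusted p = 0.0824). Il27, a subunit of IL-27, averaged 4.41 ± 5.04 CPM in ATOR-4066 tumors and 1.37 ± 0.225 CPM in vehicle tumors (1.69 ± 0.67, edgeR adjusted p = 0.145). Il11ra1, the receptor chain that binds IL-11, averaged 61.9 ± 14.1 CPM in ATOR-4066 tumors and 38.7 ± 3.18 CPM in vehicle tumors (0.68 ± 0.24, edgeR adjusted p = 0.111). Pias3, an inhibitor of STAT3, averaged 31.2 ± 3.47 CPM in ATOR-4066 tumors and 44.6 ± 0.644 CPM in vehicle tumors (-0.51 ± 0.14, edgeR adjusted p = 0.0673).

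The libraries that stood apart from their labels also differed in the members. The library labelled tumor ATOR-4066 3 held 8.20 CPM of Lif and 20.4 CPM of Osmr, below the range of every other ATOR-4066 tumor. The library labelled lymph node vehicle 3 held 29.2 CPM of Lif, 74.5 CPM of Osmr and 1.53 CPM of Il11, above every other vehicle lymph node.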
